A study of Mus musculus with 22 samples.

Results

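The annexins described here are Anxa1, Anxa2, Anxa3, Anxa5, Anxa7 and Anxa8, 6 of the 17541 genes in the count files of esophageal epithelial cells from mice. They were chosen by name. The files list 11 annexins, and the remaining 5 (Anxa4, Anxa6, Anxa9, Anxa10 and Anxa11) are given beside them. Annexins are cytosolic proteins that bind negatively charged membrane lipids when calcium rises. In stratified epithelia they are known for roles at the cell cortex, in membrane repair and in the building of the cornified envelope. Anxa1 is also a substrate of transglutaminases and a ligand of formyl peptide receptors, and Anxa2 forms a tetramer with S100a10.

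Cells came from epithelium peeled off the esophageal muscle of C57BL6 mice and were profiled by inDrop, a droplet method that tags each captured transcript with a unique molecular identifier (UMI). The 6 control mice were untreated and were aged 3 to 4 months (3 mice) or 18 to 20 months (3 mice). The 4 mice with eosinophilic esophagitis (EoE) received the vitamin D analog MC903 and ovalbumin (OVA) on the ears for 12 days and oral OVA from day 15 to euthanasia at day 32, with 15 g/L in the water; 2 were 6 to 8 weeks and 2 were 19 to 20 months old. The 3 mice with esophageal squamous cell carcinoma (ESCC) drank the carcinogen 4NQO at 100 µg/mL for 16 weeks, had 8 weeks without it and were 8 to 10 months old. Neither induction had a vehicle group here, and the age of the ESCC mice is that of no control, so age and condition cannot be told apart for ESCC. The EoE mice of 6 to 8 weeks were younger than every control, so the same holds for them.

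The deposited cells number 1500 per condition, but 144 of the 1500 EoE cells lay within the study's limits of 250 to 3500 genes and 100 to 9500 UMIs. After cells with mostly non-epithelial markers were left out, 1494 control cells with 1745051 UMIs, 143 EoE cells with 97975 and 1473 ESCC cells with 5082272 remained. EoE mouse 11 contributed 11 cells and 6245 UMIs. The 2 libraries of a control or ESCC mouse shared 4 to 52 cell barcodes, 239 in all, and results with these counted once are given where they change a call. Levels below are in CPM, a gene's UMIs scaled to the total UMIs of the mouse or stage. Overlap between groups of mice was examined in these CPM, not under TMM, and the share of all genes without overlap was not counted. Fold changes are log2 values from edgeR's quasi-likelihood test on UMIs summed per mouse, with TMM scaling and Benjamini-Hochberg adjustment over all genes tested.

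The scaling matters for EoE. The median log2 fold change of all 5868 genes tested in EoE against control was -0.76 with TMM and -0.60 with library totals alone, against 0.01 and -0.17 in ESCC. On simulated counts without any change, TMM lowered the EoE fold changes at these depths and library totals did not. The EoE values are therefore given with library totals beside TMM, and are read against the median of all genes. Between EoE and ESCC that median was -0.82 with TMM and -0.49 with library totals. In sums over all cells of a mouse, fewer cells of a type and less RNA per cell cannot be told apart. Sums within a stage are given further below. Summed immune markers ranged from 0 to 34.3 CPM in controls, were at 0 in EoE and ranged from 99.6 to 162 CPM in ESCC, where all 11 markers found in the files had a UMI. Summed endothelial markers ranged from 71.6 to 278 CPM in EoE, from 1 gene of 6 and 12 UMIs, and up to 19.6 CPM in controls. Summed fibroblast markers ranged from 59.6 to 369 CPM in controls, from 0 to 188 CPM in EoE, on 7 UMIs, and from 13.3 to 119 CPM in ESCC. The part of these markers in the annexin values was not tested.

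Anxa5 was lower in ESCC than in controls. It encodes a protein that binds exposed phosphatidylserine, and lies on chromosome 3 from 36448923 to 36475894, minus strand, in GRCm38. In controls the lowest, median and highest Anxa5 levels were 666, 866 and 963 CPM. The 3 ESCC mice had 252, 260 and 426 CPM, all below every control. The log2 fold change was -1.25 ± 0.22 (SE; adjusted p = 3.3e-05), and it was -1.44 with library totals alone. In EoE, Anxa5 stood at 811, 961, 1225 and 1067 CPM in mice 10, 11, 12 and 9, from 96 UMIs in all. These mice overlapped the controls, with a log2 fold change of 0.02 ± 0.24 under TMM and 0.21 with library totals (adjusted p = 0.96 and 0.50). With all deposited EoE cells it was 0.49 (adjusted p = 0.031). All 4 EoE mice lay above all 3 ESCC mice, and Anxa5 was higher in EoE than in ESCC by 1.27 ± 0.27 (adjusted p = 0.00043), and by 1.65 with library totals. In ESCC mice 8M, 17F and 17M the summed fibroblast markers were at 119, 25.9 and 13.3 CPM, the last 2 below every control, and their part in the Anxa5 difference was not tested.

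Anxa2 was lower in EoE. This gene, whose product works with S100a10 at membranes, lies on chromosome 9 from 69453620 to 69491795, plus strand. Controls ranged from 1487 to 2330 CPM with a median of 2120. The EoE mice had 283, 320, 429 and 501 CPM, all below every control, from 38 UMIs. The log2 fold change in EoE was -2.58 ± 0.27 (adjusted p = 1.3e-08), and -2.41 with library totals. In ESCC the levels were 1180, 1308 and 1316 CPM, again below every control. That difference did not pass the threshold in the fit used here (-0.48 ± 0.21, adjusted p = 0.073), and passed with library totals alone (-0.67, adjusted p = 0.0092) with DESeq2 (-0.38, adjusted p = 0.043) and with only these 2 groups in the fit (-0.50, adjusted p = 0.030).

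Anxa1 was lower in EoE too. It lies on chromosome 19 from 20373428 to 20390944, minus strand, and its product is the formyl peptide receptor ligand named above. Control mice ranged from 1135 to 1789 CPM with a median of 1644. In EoE the levels were 320, 334, 644 and 659 CPM, from 56 UMIs, without overlap with controls. The log2 fold change was -1.71 ± 0.28 (adjusted p = 1.8e-05), and -1.55 with library totals. ESCC mice, at 1454, 1693 and 2029 CPM, overlapped the controls, and Anxa1 passed no threshold there (0.32 ± 0.22, adjusted p = 0.27) except with DESeq2 (0.43, adjusted p = 0.027). Both genes were lower in EoE than in ESCC, Anxa1 by a log2 fold change of -2.03 ± 0.30 (adjusted p = 2.6e-06) and Anxa2 by -2.10 ± 0.30 (adjusted p = 1.2e-06). With library totals these were -1.69 and -1.74.

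Anxa3, on chromosome 5 from 96793339 to 96845966, plus strand, was the lowest of the 6 in UMIs. Controls held 67 UMIs in all, at 27.0 to 47.2 CPM. ESCC mice held 460 UMIs, at 41.9, 96.7 and 114 CPM, so that mouse 8M lay within the control range. Anxa3 was higher in ESCC by 1.33 ± 0.27 (adjusted p = 0.00029), and by 1.16 with library totals. No Anxa3 UMI was seen in the 97975 EoE UMIs. A floor of 3 UMIs over the group is 30.6 CPM there, which makes Anxa3 at least 1.25-fold lower than in controls and at least 2.96-fold lower than in ESCC. Among all deposited EoE cells 4 Anxa3 UMIs were present, and the adjusted p against controls was 0.047 under TMM, 0.065 with library totals and 0.10 with all deposited cells. Floors cover counting error only.

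Anxa7 and Anxa8 passed the threshold in fewer comparisons. Anxa7, a calcium-dependent membrane fusion protein on chromosome 14 from 20455260 to 20480133, minus strand, stood at 234 to 324 CPM in controls, at 193, 206 and 218 CPM in ESCC and at 157, 223, 239 and 320 CPM in EoE. Anxa8, on chromosome 14 from 34085981 to 34100571, plus strand, stood at 372 to 549 CPM in controls, at 338, 363 and 369 CPM in ESCC and at 160, 282, 334 and 382 CPM in EoE. In CPM the ESCC mice lay below every control for both genes. CPM uses library totals, under which the median log2 fold change of all genes in ESCC was -0.17. Under TMM the log2 fold changes of -0.25 ± 0.16 and -0.20 ± 0.18 did not pass (adjusted p = 0.26 and 0.41). With library totals Anxa7 passed (-0.43, adjusted p = 0.042). Anxa8 passed in EoE under TMM (-0.73 ± 0.27, adjusted p = 0.037) and not with library totals (-0.57, adjusted p = 0.099) or with all deposited cells (-0.20, adjusted p = 0.39). Its TMM value lies close to the median of all genes given above.

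**Figure D1:**
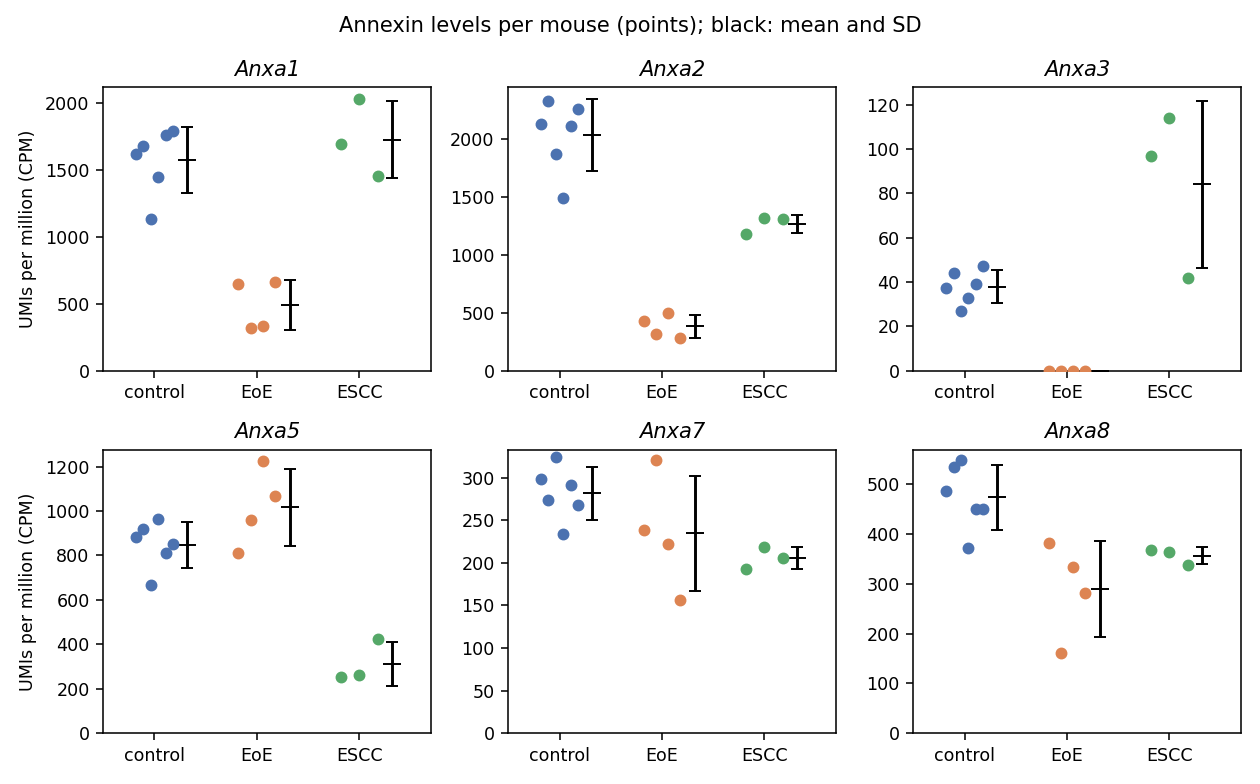
Each point is a mouse and the y axes give its level in CPM; black marks show the mean and SD of each group. The EoE mice sit below every control for Anxa1 and Anxa2, and the ESCC mice sit below every control for Anxa5.

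Counted over the 6, in ESCC 1 rose and 1 fell, beside 17.8% and 16.8% of all genes tested. In EoE 4 fell under TMM, beside 25.3% of all genes, and none rose, beside 9.41%; 2 of the 4, Anxa1 and Anxa2, also fell with library totals alone and with all deposited cells. Between EoE and ESCC, 3 were lower in EoE and 1 was higher, beside 30.2% and 11.6%. These comparisons share mice, so their counts are not independent. The median log2 fold change of the 6 was -0.22 in ESCC and -1.22 in EoE.

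**Figure D2:**
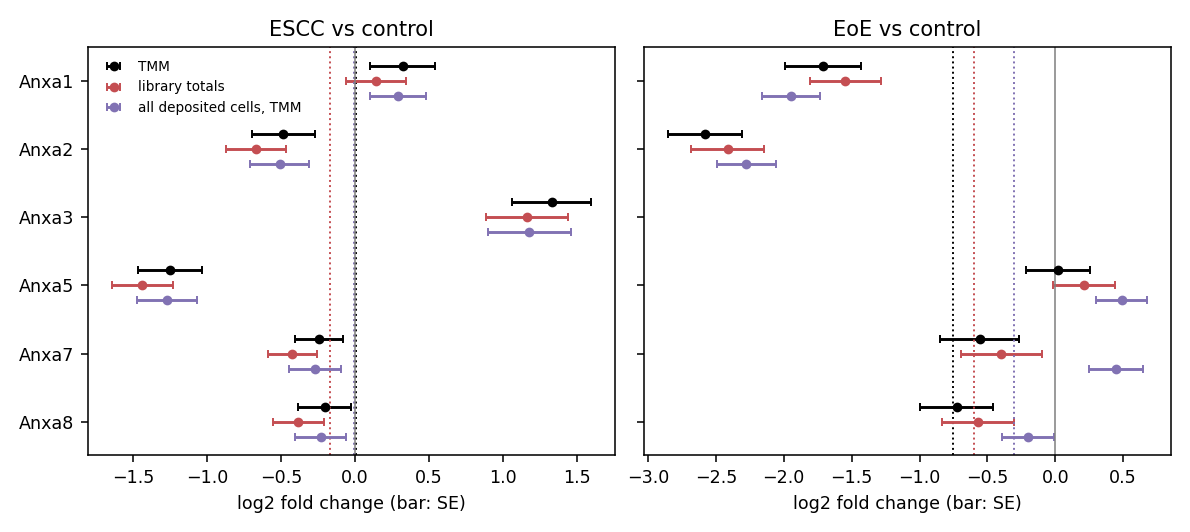
Points are log2 fold changes of each annexin against control with their SE, under TMM, library totals alone and all deposited cells; dotted lines mark the median of all genes in the same fit. Anxa3 is left out of the EoE panel because EoE held no UMI of it within the limits, and 4 over all deposited cells. Anxa1 and Anxa2 lie well to the left of the dotted lines in EoE.

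Promoter sequence is shown for 3 of the 6, Anxa1, Anxa2 and Anxa5. The sequences are from RefSeq on GRCm38.p6, 250 bases before to 50 bases after the start, and 5 of the 6 genes matched an entry. Anxa3, which was higher in ESCC, had no entry. Capitals mark matches on either strand to 4 motifs, and matches may overlap. TATAAA was found in 13.6% of all 32851 promoters of the same length. CCAAT was found in 37.4%, GGGCGG in 35.7% and TGANTCA in 7.81%.
Anxa1 chr19:20390622-20390921 (minus strand): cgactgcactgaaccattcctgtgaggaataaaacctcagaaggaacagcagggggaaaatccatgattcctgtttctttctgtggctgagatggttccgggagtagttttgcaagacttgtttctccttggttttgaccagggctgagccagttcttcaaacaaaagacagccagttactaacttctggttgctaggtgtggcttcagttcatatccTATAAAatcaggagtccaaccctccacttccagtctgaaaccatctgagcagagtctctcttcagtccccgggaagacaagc
Anxa2 chr9:69453433-69453732 (plus strand): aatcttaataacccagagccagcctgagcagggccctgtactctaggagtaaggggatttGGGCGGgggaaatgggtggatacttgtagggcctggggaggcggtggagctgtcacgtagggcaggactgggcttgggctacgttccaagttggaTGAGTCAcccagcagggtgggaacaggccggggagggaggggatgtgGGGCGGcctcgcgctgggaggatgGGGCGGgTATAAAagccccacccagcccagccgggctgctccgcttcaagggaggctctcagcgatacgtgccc
Anxa5 chr3:36475838-36476137 (minus strand): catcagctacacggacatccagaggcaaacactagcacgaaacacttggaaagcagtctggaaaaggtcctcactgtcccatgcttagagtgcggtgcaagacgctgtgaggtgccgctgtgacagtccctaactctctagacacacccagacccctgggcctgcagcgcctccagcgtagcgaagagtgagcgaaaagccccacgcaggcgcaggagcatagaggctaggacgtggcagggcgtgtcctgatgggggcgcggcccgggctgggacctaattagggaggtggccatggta
The Anxa1 window held 1 TATAAA. The Anxa2 window held 1 TATAAA, 3 GGGCGG and 1 TGANTCA. The Anxa5 window held none of the 4, and none of these windows held CCAAT. These are descriptions of letters in the windows, and no binding was measured.

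To follow the annexins along differentiation, cells were placed in 3 stages by Krt5, a keratin of the basal layer, and Krtdap, a gene of differentiating cells. The clusters behind the stages were made without annexin or partner genes. Stages are called Krt5-high, intermediate and Krtdap-high here, where the study's rule calls them basal, suprabasal and superficial. Krt5 and Krtdap are among the markers below. In mean CPM, without a test, all 10 basal markers were highest in Krt5-high cells and all 10 superficial markers in Krtdap-high cells, where Flg stood at 0.924 CPM against 0.908 CPM in Krt5-high cells. Of the 6 suprabasal markers, 5 were also highest in Krtdap-high cells. When cells were instead placed by the UMIs of their own markers, 76.9% of cells kept their stage. Control cells divided into 760, 214 and 520 cells.

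In control mice Anxa1 rose from stage to stage. Its mean was 1024 ± 182 CPM in Krt5-high, 1722 ± 205 CPM in intermediate and 2213 ± 328 CPM in Krtdap-high cells (SD, n = 6), and each step was upward in 6 of 6 mice. The log2 fold changes were 0.67 ± 0.12 for intermediate and 1.17 ± 0.10 for Krtdap-high against Krt5-high cells (adjusted p = 8.8e-06 and 1.2e-18), and 0.50 ± 0.12 between the later stages (adjusted p = 0.00030). With stages from each cell's own markers the last step did not pass (0.09, adjusted p = 0.73). Anxa5 went the other way, from 1004 ± 140 to 853 ± 184 and 662 ± 130 CPM. It was lower in Krtdap-high than in Krt5-high cells in 6 of 6 mice (-0.49 ± 0.11, adjusted p = 0.00010). Anxa2 stood at 2189 ± 383, 2340 ± 479 and 1815 ± 321 CPM, and its difference between the outer stages did not pass (-0.20, adjusted p = 0.063). It passed with library totals (-0.38, adjusted p = 0.00034), with stages from each cell's own markers (-0.34, adjusted p = 0.0071) and with shared barcodes counted once (-0.21, adjusted p = 0.041). Anxa7 and Anxa8 did not pass in any pair of stages, although between the outer stages Anxa7 passed with shared barcodes counted once (0.38, adjusted p = 0.031) and Anxa8 with every gene that had a UMI tested (0.42, adjusted p = 0.042). Anxa3 was too low to be tested, with 49, 5 and 13 UMIs in the 3 stages. Of the 5 annexins tested between the outer stages, 1 was higher and 1 lower in Krtdap-high cells, beside 27.5% and 32.7% of 2191 genes. For intermediate against Krt5-high cells 1 was higher and 0 lower, beside 8.99% and 9.72% of genes, and for Krtdap-high against intermediate cells 1 was higher and 0 lower, beside 14.4% and 14.3%.

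**Figure D3:**
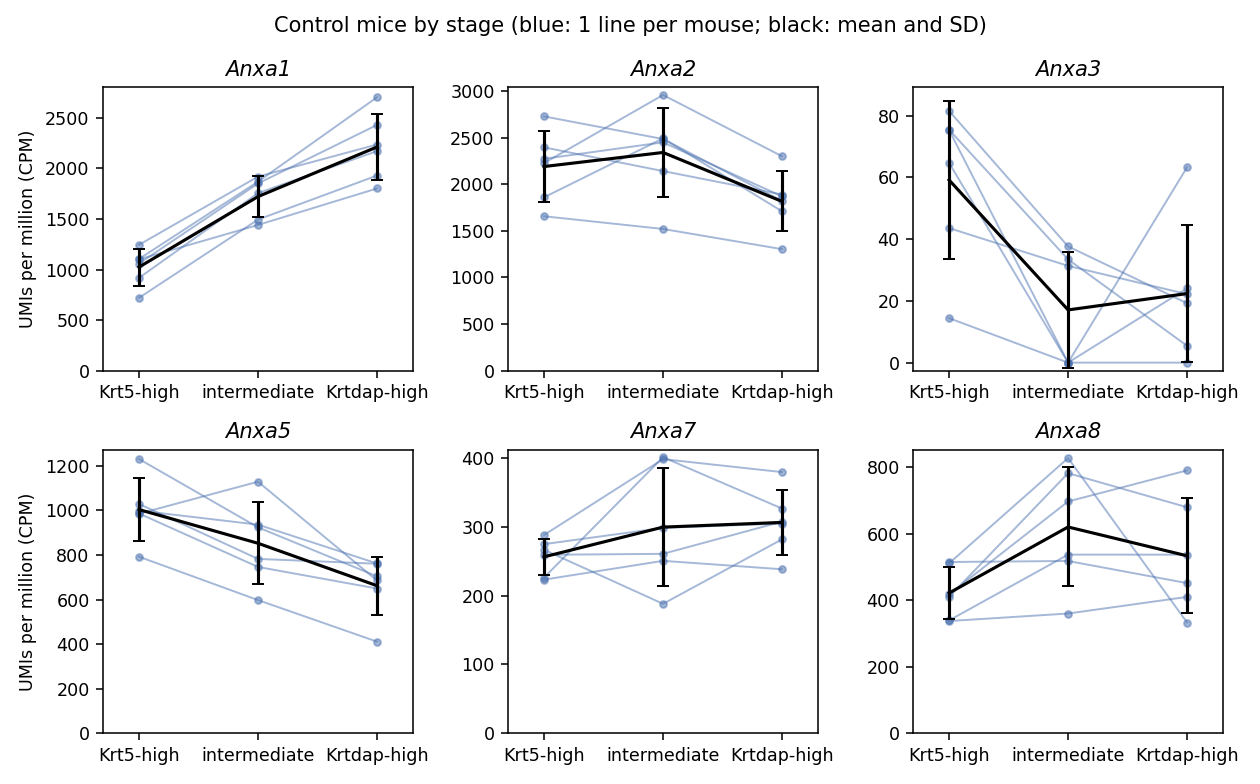
Each blue line is a control mouse across the 3 stages, in CPM, and black shows the mean and SD of 6 mice. Anxa1 climbs in every mouse and Anxa5 is lower in Krtdap-high than in Krt5-high cells in every mouse.

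Across the 18 sums of control mouse by stage, genes were ranked by their likeness to an annexin (Pearson r of log2(CPM + 1), among genes with a mean of at least 100 CPM). By library totals, among 1881 genes, those most like Anxa1 were Aldh3b2, Calml3 and Scd2 (r = 0.94, 0.94 and 0.93), and those most like Anxa5 were Fgfr2, Fth1 and H19 (0.91, 0.86 and 0.86). Anxa7 was most like Sars, Gnai3 and Arpc5 (0.75, 0.72 and 0.71), and Anxa8 like Lrrc59, Ostc and Fam32a (0.85, 0.83 and 0.81). The names depended on the scaling. Under TMM 0 of the 3 genes recurred for Anxa1 and Anxa5, 1 for Anxa7 (Arpc5) and 2 for Anxa8 (Lrrc59 and Ostc). The sums share mice and stages, so these values are a description.

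Stage and condition were then crossed, since ESCC mice had 71.3% ± 3.12 of their cells in the Krt5-high stage and EoE mice had 61.5% ± 1.67 in the Krtdap-high stage, against 54.2% ± 10.2 and 32.4% ± 9.08 in controls. The EoE share is of the 143 cells within the limits, where the median was 651 UMIs in Krtdap-high and 353 in Krt5-high cells. Mean Krtdap in EoE was 7894 CPM within the limits and 3425 CPM over all deposited cells, and mean Krt5 was 571 and 982 CPM. The part of the limits in the EoE share was not tested. In ESCC mice 8M, 17F and 17M, 61, 61 and 77 cells were Krtdap-high, but 36, 7 and 7 when cells were placed by their own markers. Anxa5 was lower in ESCC within every stage, by -1.37 ± 0.22 in Krt5-high, -1.32 ± 0.29 in intermediate and -1.08 ± 0.24 in Krtdap-high cells (adjusted p = 2.0e-05, 0.00029 and 0.00047). In Krtdap-high cells the ESCC mice had 243, 246 and 320 CPM against 411 to 762 CPM in controls, without overlap. Anxa1 was higher in ESCC within each stage under TMM, by 0.50 ± 0.19, 0.68 ± 0.24 and 0.77 ± 0.27 (adjusted p = 0.046, 0.025 and 0.027), and did not pass with library totals (0.25, 0.33 and 0.52, adjusted p = 0.32, 0.25 and 0.069). In Krtdap-high cells placed by their own markers it did not pass either (0.32, adjusted p = 0.33), while Anxa5 did (-0.87, adjusted p = 0.022). In Krt5-high cells Anxa2 was lower by -0.56 ± 0.20 (adjusted p = 0.035) and Anxa3 higher by 0.79 ± 0.30 (adjusted p = 0.047). Anxa3 did not pass with library totals (0.55, adjusted p = 0.17). With 1 mouse left out at a time there were 13 fits. Those without EoE mouse 9 or 11, which had under 5 Krt5-high cells, left the fit unchanged. The Krt5-high calls were lost in 7 fits for Anxa1 (range 0.37 to 0.58), in 6 for Anxa2 (-0.63 to -0.49) and in 9 for Anxa3 (0.57 to 1.02). For all 3 genes these included the fits without ESCC mouse 17F or 17M and without control mouse 1, 2 or 5. The remaining ones were without EoE mouse 10 or control mouse 3 for Anxa1, without control mouse 6 for Anxa2, and without EoE mouse 10 or 12 or control mouse 3 or 4 for Anxa3. The call of Anxa1 was also lost without ESCC mouse 17M in both later stages and without 17F in intermediate cells. Of the annexins tested in ESCC, 2 rose and 2 fell in Krt5-high cells, beside 16.0% and 13% of genes, 1 rose and 1 fell in intermediate cells, beside 23.8% and 16.3%, and 1 rose and 1 fell in Krtdap-high cells, beside 15.9% and 12.0%. No difference of the ESCC effect between Krtdap-high and Krt5-high cells passed for the 6 by edgeR (0 called, smallest unadjusted p 0.071, for Anxa3), beside 1.20% higher and 2.22% lower among 4737 genes.

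Of the 143 EoE cells 87 were Krtdap-high, the one stage with at least 5 cells in all 4 mice and the one that was tested. There Anxa1 stood at 245, 460, 597 and 662 CPM and Anxa2 at 199, 422, 460 and 490 CPM, against 1802 to 2704 CPM and 1303 to 2299 CPM in controls. Neither overlapped. The log2 fold changes were -2.25 ± 0.34 and -2.52 ± 0.34 (adjusted p = 8.5e-07 and 8.5e-08), and -2.10 and -2.37 with library totals. Anxa5 did not pass (0.09 ± 0.27, adjusted p = 0.82; 0.28 with library totals, adjusted p = 0.42). Anxa8 was lower by -1.43 ± 0.38 (adjusted p = 0.0031), from 16 UMIs, and by -1.29 with library totals. Anxa7 rested on 12 UMIs and passed under TMM (-1.10, adjusted p = 0.038) and not with library totals (-0.96, adjusted p = 0.069). It ranged from -2.35 without EoE mouse 10 to -0.73 without EoE mouse 9, and its call was lost in 4 fits, those without EoE mouse 9 or 12 or control mouse 3 or 6. Of 5 tested, 4 fell, beside 23.2% of 3137 genes, with a median of all genes of -0.47, and none rose, beside 10.9%. The intermediate stage held at least 5 cells in 3 EoE mice and the Krt5-high stage in 2, and their values are given without a test. In intermediate EoE cells Anxa8 was at 1084 ± 559 CPM from 11 UMIs, against 621 ± 179 CPM in controls, and Anxa7 was at 597 ± 166 CPM from 7 UMIs, against 300 ± 85.4 CPM. In Krt5-high EoE cells Anxa8 was at 473 and 824 CPM from 5 UMIs, against 338 to 515 CPM in controls. Anxa7 was there at 0 and 412 CPM from 1 UMI, a mean of 206 CPM against 256 CPM in controls. The Anxa8 means of both stages and the Anxa7 mean of intermediate cells thus lay above those of controls. The Anxa7 mean in Krt5-high cells, and both genes in Krtdap-high cells, lay below them. Anxa1 and Anxa2 were at 803 ± 699 and 839 ± 78.0 CPM in intermediate EoE cells, from 9 UMIs each, against 1722 and 2340 CPM in controls. In Krt5-high EoE cells Anxa1 was at 315 and 1237 CPM from 5 UMIs, against 720 to 1245 CPM in controls. Anxa2 was there at 315 and 0 CPM from 2 UMIs, against 1656 to 2727 CPM. Anxa5 was at 1734 and 1649 CPM in Krt5-high EoE cells from 15 UMIs, against 793 to 1231 CPM in controls. In intermediate EoE cells Anxa5 ranged from 0 to 2736 CPM from 16 UMIs, a mean of 1353 CPM against 853 CPM.

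**Figure D4:**
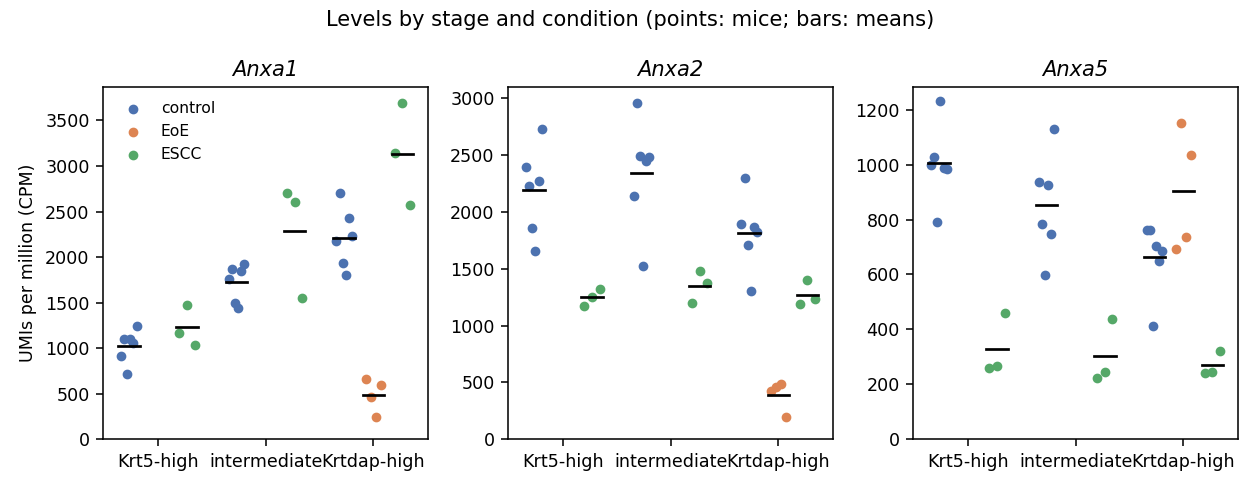
Points are mice, bars are group means, and the y axes give CPM within a stage. EoE is shown for Krtdap-high cells alone, the stage with sums from all 4 mice; there Anxa1 and Anxa2 lie below every control while Anxa5 does not.

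The make-up of the annexin UMIs differed between conditions, a description that no scaling factor enters. Anxa1 and Anxa2 supplied 29.9% ± 2.79 and 38.6% ± 2.98 of the UMIs of the 6 in controls, 20.2% ± 7.17 and 15.8% ± 3.23 in EoE, and 43.5% ± 4.46 and 32.2% ± 2.21 in ESCC. Anxa5 supplied 16.3% ± 2.51 in controls, 42.2% ± 6.71 in EoE and 8.00% ± 2.86 in ESCC. The lowest EoE share of Anxa5, 32.4%, lay above the highest control share, 21.2%, and the highest ESCC share, 11.3%, lay below the lowest control share, 14.6%. The EoE shares rest on 243 UMIs, from 13 in mouse 11 to 105 in mouse 10. Shares of a mouse add up to the whole, so the Anxa5 share also rises when Anxa1 and Anxa2 fall. Anxa5 itself did not pass in EoE against controls (0.02, adjusted p = 0.96 by edgeR with TMM), except with all deposited cells. Of all UMIs of a mouse, the 6 together held 0.524% ± 0.0548 (control), 0.241% ± 0.0232 (EoE) and 0.395% ± 0.0302 (ESCC).

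**Figure D5:**
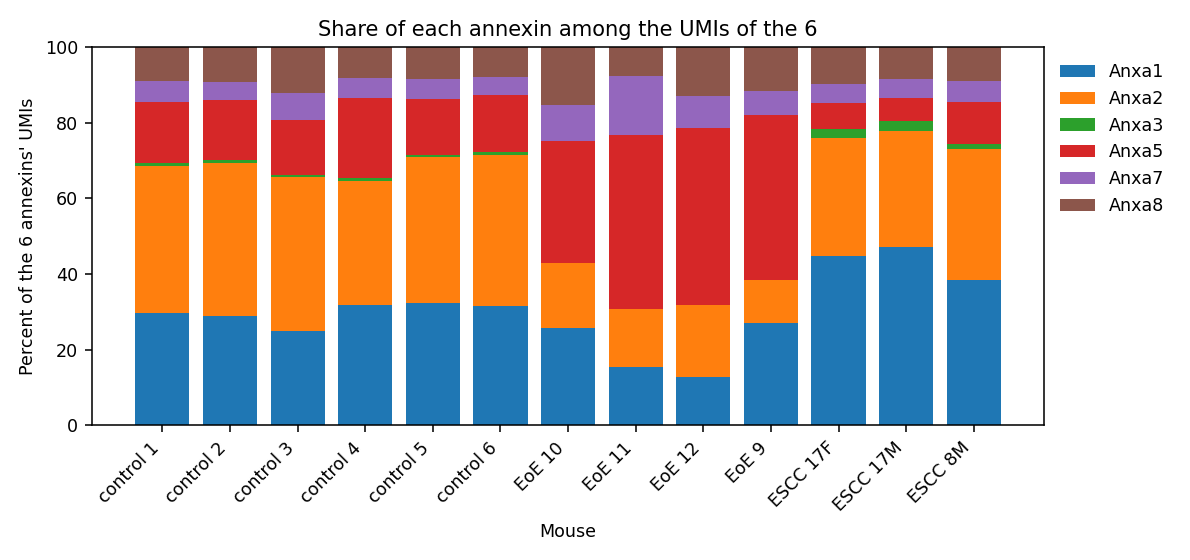
Each bar is a mouse and its colors divide the UMIs of the 6 annexins, in percent. The Anxa5 share is 32.4% or more in every EoE mouse and at most 11.3% in every ESCC mouse. The EoE bars rest on 13 to 105 UMIs each.

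None of the 6 passed between old and young controls. Between the 3 old and 3 young mice the log2 fold changes ran from -0.26 for Anxa3 to 0.02 for Anxa7, and edgeR called 0 of 6 (smallest unadjusted p 0.22, for Anxa2), as did DESeq2. Among all genes 0.0776% were higher and 0.0194% lower in old mice.

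Among the other annexins, Anxa4 and Anxa6 were tested. Anxa4 was lower in ESCC by -1.09 ± 0.21 (adjusted p = 0.00014) and higher in EoE than in ESCC by 1.73 ± 0.38 (adjusted p = 0.00067), and by 2.07 with library totals. Against controls it did not pass in EoE (0.64 ± 0.35, adjusted p = 0.16, and 0.80 with library totals, adjusted p = 0.083), from 23 UMIs. With all deposited cells the 4 EoE mice, at 278 to 357 CPM from 96 UMIs, lay above every control, at 98.2 to 199 CPM. Anxa6 was lower in ESCC by -1.44 ± 0.33 (adjusted p = 0.0013), from 67 UMIs against 74 in the shallower controls. EoE held no Anxa6 UMI, and by the floor of 3 UMIs its level was at least 1.38-fold lower than in controls (adjusted p = 0.029, and 0.037 with library totals). Anxa9, Anxa10 and Anxa11 held 27, 0 and 1 UMIs in controls.

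The list of annexin partners and membrane repair genes has 27 genes in the files. In ESCC 16 were tested, of which 2 were higher and 5 lower, beside 17.8% and 16.8% of all genes. With library totals 1 was higher and 8 lower, beside 12.9% and 24.5%. S100a11, a calcium-binding partner of Anxa1, rose by 2.60 and the membrane repair gene Myof by 0.60, a call that was lost with library totals (0.42, adjusted p = 0.086), while the transglutaminases Tgm3 and Tgm1 fell by 1.49 and 1.33 on the log2 scale. The log2 fold change of S100a10, the partner of Anxa2, was -0.78 in ESCC, and those of Ahnak and Capns1 were -1.20 and -0.55. In EoE 10 of 16 were lower and none higher, beside 25.3% and 9.41% of all genes under TMM, and likewise with library totals, beside 21.2% and 11.0%. Their median was -1.65 beside -0.76 for all genes under TMM, and -1.50 beside -0.60 with library totals. The log2 fold change of S100a6 was -2.93 under TMM and -2.78 with library totals, and that of S100a10 was -4.62 and -4.48, from 4 UMIs in EoE. S100a11, which was higher in ESCC, was at -3.42 in EoE under TMM, from 2 UMIs there. Pla2g4a, without a UMI in EoE, was also among those called lower under TMM. In control cells 14 were tested between the outer stages. Of these, 6 were higher and 4 lower in Krtdap-high than in Krt5-high cells, beside 27.5% and 32.7% of all genes. Tgm3, Tgm1, Ahnak, Capn1 and Pdcd6ip were higher by 3.40, 2.03, 1.18, 1.17 and 0.75. Among the 4 lower, S100a6 fell most. The log2 fold changes of Myof, S100a10 and Capns1 were -1.40, -1.15 and -0.99. Of the formyl peptide receptors, Fpr1 had no UMI in any mouse and Fpr2 had 3, all in ESCC mouse 17F.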

How the data were processed

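The deposited values are UMI counts, whole numbers per gene and cell without normalization. The authors extracted barcodes with UMI-tools 1.0.0, aligned with STAR 2.7.3 to GRCm38, assigned reads with featureCounts, filtered cells and drew 1500 per condition. Here counts were summed per mouse (both libraries pooled; grouping by label), and per mouse and stage where at least 5 cells were present. Stages came from Leiden clusters of control cells (scanpy 1.11.5, 2000 genes, 50 components, 15 neighbors, resolution 1.0), classed by the Krt5 and Krtdap strip of 0.3 and carried to other cells by the nearest control cells of other mice. Sums were tested with edgeR 4.0.16 (TMM, filterByExpr, quasi-likelihood, Benjamini-Hochberg, threshold 0.05), all groups in the fit; the mouse was a block in the control stage fits. DESeq2 1.42.0, library totals, other filters, cells and each mouse left out were alternatives. The procedure was tested on simulated counts, where TMM lowered EoE fold changes; it was kept as planned, with library totals beside it. Scrublet called 260 of 4500 cells doublets, which were kept. Positions are from GENCODE M21 on GRCm38. No other gene shared 10% or more of the 31-base sequences at the transcript ends of the 6. Named genes were the 6 members, the other annexins, up to 5 partners per direction past the threshold, the 3 most similar genes per member, Krt5 and Krtdap. The genes most similar to Anxa2 are not reported here. Members and lists were chosen with earlier results of these data known. P-values measure the spread between mice.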

Additional observations from a re-analysis of the deposited data

Results flagged for a closer look

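In control mouse 3, Anxa5 in Krtdap-high cells was 411 CPM, far below the other 5 control mice, with a gap of 0.68 of the group's range. This value rested on 13 UMIs from 14 cells, the fewest Krtdap-high cells of any control mouse. Of 30 groups of mice examined for a value this far out, 1 was found, and chance flags about 1 in 20 groups.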

How the results depend on the processing

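Over 359 refits of single annexins under other settings, 304 kept their direction and their side of the threshold, 18 lost it, 18 gained it and 19 changed sign; over 687 refits with a mouse left out, the numbers were 618, 42, 6 and 21. For EoE the calls of Anxa1 and Anxa2 held in all of these, as did those of Anxa5 and Anxa3 in ESCC over whole mice. Causes of the changes below were not tested.

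With DESeq2, ESCC against control called 2 annexins higher and 2 lower, and 1 higher in Krt5-high cells. With all deposited cells, EoE called 1 higher and 2 lower against control, and 2 higher against ESCC. With library totals alone, ESCC called 3 lower over whole mice, 4 lower in intermediate cells, and 0 higher in Krt5-high, intermediate and Krtdap-high cells; EoE called 2 lower; Krtdap-high cells of controls had 2 lower against Krt5-high and 2 lower against intermediate cells. With only the 2 groups in the fit, 2 were lower in ESCC and 2 in EoE, and with an age term 2 in EoE. That term classed EoE mice of 6 to 8 weeks and controls of 3 to 4 months alike as young. With every gene with a UMI, Krtdap-high against Krt5-high control cells gave 2 higher and 2 lower, ESCC gave 2 higher in intermediate and 2 in Krtdap-high cells, and 1 lower in Krt5-high cells. Stages from marker UMIs gave 0 higher between Krtdap-high and intermediate control cells, 2 lower between Krtdap-high and Krt5-high, and 0 higher for ESCC in Krtdap-high cells. With shared barcodes counted once, an alternative chosen after seeing the data, Krtdap-high against Krt5-high gave 2 higher and 2 lower.

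The same settings moved the calls over all genes. Library totals lowered the share called higher in ESCC from 17.8% to 12.9% and raised that called lower from 16.8% to 24.5%; in intermediate cells these were 17.6% and 32.3%, and between the outer control stages 21.8% and 40.3%. All deposited cells called 21.4% higher and 29.3% lower in EoE. Every gene with a UMI called 10.3% higher and 11.3% lower between the outer control stages. In ESCC this setting called 5.07% higher in intermediate, 6.89% higher in Krtdap-high and 4.23% lower in Krt5-high cells. Marker stages called 7.49% higher between Krtdap-high and intermediate control cells, and tested 941 genes in place of 3137 for ESCC in Krtdap-high cells. They called 19.3% higher in that ESCC fit and 34.1% lower between the outer control stages. With shared barcodes counted once, 28.6% were higher and 34.7% lower between the outer control stages. DESeq2 called 20.2% higher and 12.6% lower in ESCC, and 15.3% higher there in Krt5-high cells. Only the 2 groups gave 28.9% lower in EoE and 16.8% lower in ESCC, and the age term 28.8% lower in EoE. All deposited cells called 23.6% higher in EoE against ESCC. Library totals called 10.5% and 12.3% higher in ESCC in Krt5-high and Krtdap-high cells, and 21.2% lower in EoE. Between Krtdap-high and intermediate control cells they called 21.4% lower.

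Leaving out a mouse moved the annexins higher in Krtdap-high against Krt5-high control cells between 1 and 3 (1 without mouse 4, 3 without mouse 6). Over all genes, 473 of 1648 were higher without mouse 4 and 485 of 1608 without mouse 6, beside 602 of 2191 with all mice. For ESCC it moved those higher between 0 and 2 in Krt5-high cells and between 0 and 1 in intermediate and Krtdap-high cells (0 without ESCC mouse 17M in each), and those lower in Krt5-high cells between 1 and 2. Without 17M, 455 of 3677 genes were higher in Krt5-high, 152 of 927 in intermediate and 422 of 2803 in Krtdap-high cells. With all mice these were 628 of 3925, 175 of 734 and 500 of 3137. Genes lower in Krt5-high cells were 320 of 3678 without 17F and 344 of 3677 without 17M, beside 510 of 3925. EoE ranged from 2 to 4 annexins lower (2 without EoE mouse 9, 11 or 12 or control mouse 2). Over all genes, 1110 of 5945, 1221 of 5979, 1156 of 5889 and 1469 of 5904 were lower in these fits, in that order. With all mice 1483 of 5868 were lower. Without the replicate block (each mouse as a block in the stage fits) the control stages kept 1 annexin higher in each comparison and 1 lower between the outer stages. Between the outer stages 25.5% of all genes were then higher and 30.2% lower. In intermediate against Krt5-high cells 7.58% were higher, and in Krtdap-high against intermediate cells 12.3%. Anxa1 was then at 1.18 (adjusted p = 7.2e-09 by edgeR) in Krtdap-high against Krt5-high cells.

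Signs changed in values that had not passed. Anxa5 in EoE was -0.014 without doublets, -0.19 with DESeq2, -0.33 with every gene and -0.082 with barcodes counted once, and ranged from -0.18 to 0.11 with a mouse left out (-0.17 to 0.30 in Krtdap-high cells). Anxa7 in EoE was 0.45 with all deposited cells, and against ESCC 0.72 (adjusted p = 0.0074) with these and 0.027 with library totals; Anxa8 against ESCC was 0.030 with all deposited cells. Between Krtdap-high and intermediate control cells, every gene with a UMI gave 0.12 for Anxa2, 0.092 for Anxa5 and 0.22 for Anxa8, library totals gave -0.057 for Anxa7, and a mouse left out gave -0.17 to 0.16 for Anxa8; between intermediate and Krt5-high cells Anxa2 ranged from -0.11 to 0.038. For ESCC, Anxa8 was 0.037 in intermediate cells with every gene and, in Krtdap-high cells, -0.30 with marker stages and -0.055 with library totals; Anxa7 in Krt5-high cells ranged from -0.12 to 0.022. Marker stages gave ESCC differences between stages of -0.36 for Anxa1, -0.11 for Anxa2 and -0.20 for Anxa8. Between old and young controls Anxa7 was -0.025 with library totals, and with a mouse left out Anxa5 ranged from -0.23 to 0.072, Anxa7 from -0.048 to 0.14 and Anxa8 from -0.19 to 0.040.

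Depth limits EoE most: 38 to 96 UMIs carry its Anxa1, Anxa2 and Anxa5 values, and 0 UMIs over the EoE group allows a level of up to 30.6 CPM.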
